A study of Drosophila melanogaster with 12 samples.

Results

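H3K23ac per H3 was compared between enok_KD and GFP_KD fly ovaries at annotated repeat elements, with each H3K23ac library set against the H3 library of the same replicate number. The tables list 215 transposons, satellites and other repeats, and the 203 elements with a mean of at least 10 counts over the 8 libraries were tested. TRAM_I, at a mean of 10.4 counts, was the element just inside this limit, and FUSHI_DM, at 9.50, was just outside it. Both groups of females carried the tj-GAL4 driver, active in somatic follicle cells, together with GAL4::VP16-nos.UTR (MVD1), active in the germline. The control group (GFP_KD) also carried P{VALIUM20-EGFP.shRNA.1}attP2, and the knockdown group (enok_KD) carried P{TRiP.HMS02634}attP2, the hairpin against enok. RNAi was run at 29 °C for 2 to 3 days in females aged 2 to 3 days. Since whole ovaries with both drivers were used, germline and follicle-cell chromatin cannot be told apart in these libraries, and the level of enok itself cannot be read from tables of repeats. Of 12 libraries in the series, the 4 input libraries were not analysed here. The other 8 gave 2 pairs per knockdown.

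Enok is the acetyltransferase that places acetyl groups on lysine 23 of histone H3 in the fly, and H3K23ac is found at active genes. Repeats make up much of the fly's heterochromatin, where transposons are kept silent in the germline by piRNAs and the silencing complexes that they guide. LTR retrotransposons (Gypsy, Pao and Copia superfamilies) carry a coding internal part between a pair of long terminal repeats, LINEs (Jockey, R1, R2) copy themselves without such repeats, and DNA transposons (Transib, Tc1, P) move by cut and paste. Satellites are tandem arrays with no coding capacity.

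The H3 libraries held between 411139 and 628808 repeat reads, and the H3K23ac libraries between 199303 and 370429. The most counted element, ROO_I, took 6.42% to 8.18% of the H3 reads and 14.6% to 16.4% of the H3K23ac reads. Satellites took 7.17% to 11.9% of the H3 reads and 3.13% to 4.91% of the H3K23ac reads. Libraries were scaled with TMM factors, which set the typical element to no change, so that a loss of H3K23ac shared by all repeats would not be seen and every change below is relative to the other repeats. A change in the mix of cells in the ovary and a change per cell cannot be told apart either.

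The methods give the ovaries used per replicate for both antibodies together, and the labels hold a single input per number, but neither says that both antibodies were run on the same chromatin. It was therefore first asked if libraries of the same number deviated together. In enok_KD they did. The log2 difference between replicates 1 and 2 correlated between H3 and H3K23ac with Pearson's r of 0.70 over 203 elements (Spearman's rho 0.76), and it had the same sign in both antibodies for 167 elements (82.3%). In GFP_KD the same r was -0.02 (rho -0.14), and the sign was shared by 86 elements (42.4%). These correlations run over elements of the same libraries and are a description. Accordingly, pairing narrowed the spread in enok_KD, where the SD of the replicate difference over elements was 0.33 for H3, 0.45 for H3K23ac and 0.32 for their ratio on the log2 scale, against 0.56 if the antibodies had varied independently. In GFP_KD the ratio differed between replicates with an SD of 0.29, against 0.28 for independent antibodies, so that the pairs there did not narrow the spread. Among the 172 elements with a mean of at least 100 counts, r was 0.85 in enok_KD and -0.20 in GFP_KD. For these elements the SD of the GFP_KD ratio was 0.22, against 0.20 for independent antibodies. Same-numbered libraries thus deviated together in enok_KD alone.

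**Figure D1:**
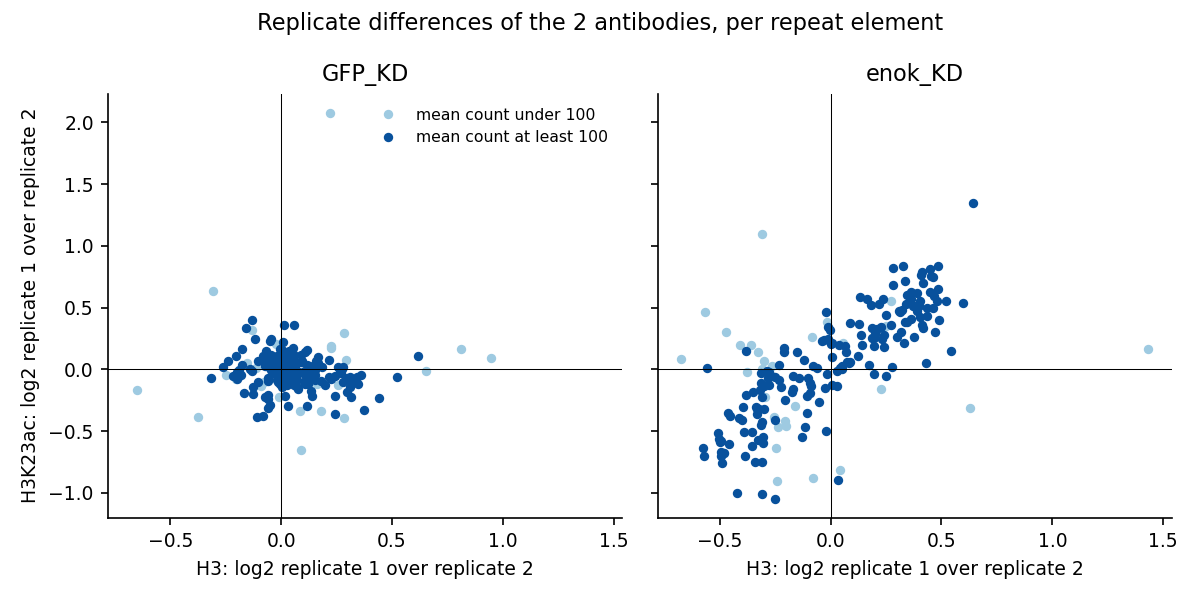
Each point is a repeat element, with the log2 difference between replicates 1 and 2 in H3 on the x axis and in H3K23ac on the y axis, for GFP_KD (left) and enok_KD (right), and dark points have a mean of at least 100 counts. The points form a rising band in enok_KD (r = 0.70) and a round cloud in GFP_KD (r = -0.02). Among the dark points r was 0.85 in enok_KD and -0.20 in GFP_KD.

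With the replicate number as a block, H3K23ac per H3 was called different between enok_KD and GFP_KD at 65 of 203 elements (32.0%) by the quasi-likelihood test of edgeR at an adjusted p under 0.05. The ratio was higher in enok_KD at 36 of them (17.7% of elements tested) and lower at 29 (14.3%). The log2 fold change of those called higher ran from 0.35 to 1.16 (median 0.51), and of those called lower from -1.36 to -0.35 (median -0.63), while the median over all 203 elements was 0.05. Invader2_LTR, with an edgeR adjusted p of 0.045, was the call nearest the threshold, and Invader3_LTR, at 0.0557, was just outside it. Among called elements, RSP, DMSAT6, ROVER-I_DM and TLD2 had a log2 fold change under -1, 4 elements or 1.97% of those tested. ALA_DM, with a mean of 14.5 counts, was at -1.41 but was not called (edgeR adjusted p = 0.0626). The paired ratios of the groups did not overlap in 64 of the 65 called elements, the exception being Invader2_LTR, nor in 134 of all 203 elements (66.0%).

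The same contrast without the block called 0 elements in edgeR (0% of those tested), with 29 elements (14.3%) at an unadjusted p under 0.05 and a lowest adjusted p of 0.129. DESeq2 without the block called 5 elements (2.46%), namely RSP, DMSAT6, ROVER-I_DM, R2_DM and T412LTR, and limma-voom without it called 0, with 32 at an unadjusted p under 0.05. The paired calls therefore rest on a pairing that the data bear out in enok_KD alone, and with 2 ratios per knockdown an exact two-sided permutation test of a single element cannot go below p = 0.333.

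The paired count also depended on single pairs. With 1 pair left in a knockdown, the spread came from the pairs of the other knockdown, and the lone pair was taken to vary like them. The test also pools the spread over elements, with a weight given by the prior degrees of freedom. These were infinite with all pairs and without an enok_KD pair. Without GFP_KD replicate 1 or 2 they were 2.04 and 2.09, so these fits differ in pooling too. Leaving out either GFP_KD pair left 0 calls in edgeR, with 58 elements at an unadjusted p under 0.05 without replicate 1 and 44 without replicate 2. Leaving out enok_KD replicate 1 left 36 calls, and leaving out replicate 2 left 49. The library taken as the TMM reference mattered as well, an alternative chosen after seeing the data. The count was 65 with edgeR's own choice, enok_KD H3 replicate 2, and ran from 31 (12 higher, 19 lower, with enok_KD H3 replicate 1) to 69 (37 higher, 32 lower, with GFP_KD H3K23ac replicate 2) over the 8 possible references. With enok_KD H3K23ac replicate 2 as reference it was 37 (16 higher, 21 lower). All 65 elements kept their sign under each of these settings, and 28 of them (12 higher, 16 lower) were called with each of the 8 references.

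**Figure D2:**
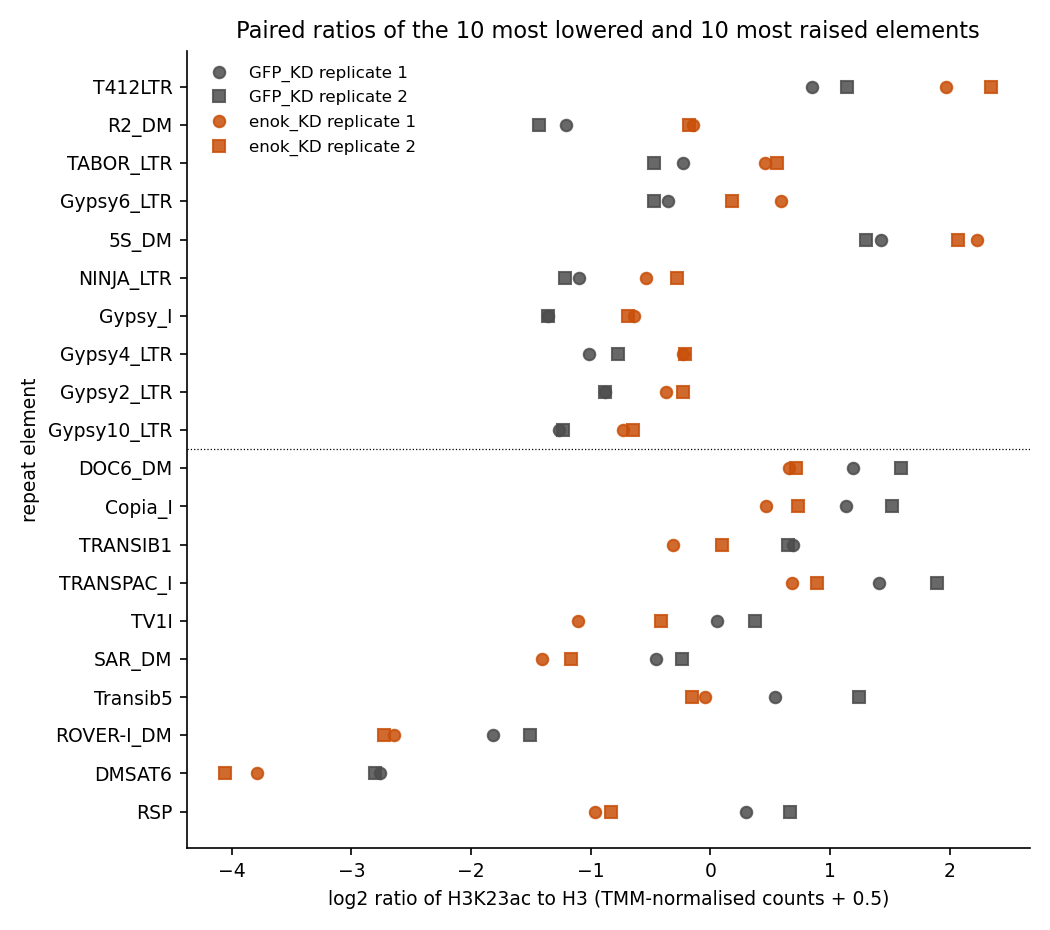
The log2 ratio of H3K23ac to H3 (x axis, TMM-normalised counts with an offset of 0.5) is shown for each of the 4 pairs of libraries, for the 10 elements with the highest and the 10 with the lowest log2 fold change among called elements with a mean of at least 100 counts and separate ratios. The enok_KD points (orange) lie to the right of both GFP_KD points (grey) in the upper 10 rows and to the left in the lower 10, from T412LTR (1.16) to RSP (-1.36).

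Satellites had the lowest median change of the superfamilies with 3 or more members. At RSP, the Responder satellite that is the target of Segregation Distorter, the log2 ratio of H3K23ac to H3 was 0.30 and 0.66 in the GFP_KD pairs and -0.97 and -0.83 in the enok_KD pairs. The groups were thus well apart, and the counts behind the enok_KD ratios were 351 and 516 for H3 and 79 and 199 for H3K23ac. The fitted change was -1.36 ± 0.19 (SE), a 2.58-fold lower ratio (edgeR adjusted p = 2.39e-10). DMSAT6 had log2 ratios of -2.76 and -2.80 in GFP_KD and of -3.79 and -4.05 in enok_KD, a change of -1.14 ± 0.14 (edgeR adjusted p = 6.73e-14). It was the satellite with the least H3K23ac per H3 in both groups. SAR_DM, the most counted satellite with 22335 reads per library on average, went from -0.45 and -0.23 to -1.41 and -1.17, a change of -0.94 ± 0.12 (edgeR adjusted p = 3.01e-13). The other members, HETRP_DM (-0.28) and HSATII (-0.47, 22.0 counts on average), were not called. Thus 3 of 5 satellites were lower (60% called, against 32.0% of all elements), 0 were higher and the median of the 5 was -0.94. All 3 calls held with each of the 8 TMM references. The satellites' share of H3 reads was 7.17% and 7.45% in GFP_KD and 9.94% and 11.9% in enok_KD.

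Among LTR retrotransposons the calls went both ways, with 25 of 118 tested elements higher, 15 lower and a median of 0.08. Together 33.9% were called, near the 32.0% of all elements. The Gypsy superfamily held 92 of them, of which 20 were higher and 12 lower (34.8% called, median 0.06). The strongest decrease was at ROVER-I_DM, the internal part of a gypsy-like element, whose log2 ratios of -1.81 and -1.51 in GFP_KD stood against -2.65 and -2.73 in enok_KD. It was read 8678 and 8692 times in H3 of GFP_KD, and 10120 and 13155 times in the smaller enok_KD libraries. The change was -1.03 ± 0.12 (edgeR adjusted p = 1.61e-13). TRANSPAC_I went from ratios of 1.41 and 1.89 to 0.68 and 0.89 (-0.86 ± 0.13, edgeR adjusted p = 1.79e-08). TV1I was counted less deeply, at 165 reads per library on average, and its enok_KD ratios of -1.11 and -0.41 lay far from each other, though both were under the GFP_KD values of 0.05 and 0.38 (-0.89 ± 0.24, edgeR adjusted p = 0.00192). Copia_I, the coding part of copia, went from 1.13 and 1.51 to 0.47 and 0.73 (-0.72 ± 0.12, edgeR adjusted p = 3.09e-07).

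Increases among LTR retrotransposons were led by T412LTR, a terminal repeat. It had log2 ratios of 0.85 and 1.14 in GFP_KD and of 1.97 and 2.35 in enok_KD, from 262 and 325 H3 reads in GFP_KD and 150 and 110 in enok_KD. The change of 1.16 ± 0.21 (edgeR adjusted p = 6.41e-07) was a 2.23-fold higher ratio. The similarly named DM412 and DM412B_LTR were higher by only 0.25 ± 0.12 and 0.60 ± 0.28 (edgeR adjusted p = 0.101 and 0.091). Both were uncalled, with each of the 8 TMM references as well. T412LTR and these entries are not among the pairs of internal part and LTR compared below. Gypsy_I, the internal part of gypsy, an element with an envelope gene that is active in follicle cells, stood at -1.36 in both GFP_KD pairs and at -0.64 and -0.69 in enok_KD (0.69 ± 0.13, edgeR adjusted p = 2.01e-06). TABOR_LTR rose from -0.23 and -0.48 to 0.45 and 0.56 (0.87 ± 0.24, edgeR adjusted p = 0.00265). Gypsy6_LTR, Gypsy4_LTR, Gypsy2_LTR and Gypsy10_LTR were higher by 0.80, 0.67, 0.58 and 0.57 on the log2 scale, and of these the first pair was called with each TMM reference and the others with 6 of the 8. Invader6_LTR had the largest change of the superfamily, 1.13 ± 0.37, at only 52.5 reads per library on average. In the Pao superfamily, 3 of 17 elements were higher and 1 was lower (23.5% called, against 32.0% of all elements, median 0.07). The largest change there was at NINJA_LTR, 0.76 ± 0.30 (edgeR adjusted p = 0.0369). No Pao call held with each of the 8 references. Copia-superfamily elements were called higher at 1 of 8 and lower at 2 (37.5% called, median 0.20). Of 21 tested parts of gypsy-like elements known for an envelope gene, 6 were higher and 5 lower, with a median of -0.06. Together 52.4% of these parts were called, against 32.0% of all elements. Only 1 of the higher and 4 of the lower calls held with each of the 8 references. Internal parts and LTRs of the same element were counted separately in this share.

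Among the 41 LINEs tested, 10 were higher and 3 lower (31.7% called, near the 32.0% of all elements, median 0.18). R2_DM, which inserts into the 28S genes of the ribosomal DNA, had the lowest adjusted p of all elements (edgeR, 2.77e-15). Its log2 ratio was -1.21 and -1.43 in GFP_KD and -0.14 and -0.18 in enok_KD, a change of 1.16 ± 0.13. R2_DM was carried by H3K23ac, which was higher by 1.10 on the log2 scale while H3 differed by -0.06. R1_DM, which inserts into the same genes, was at -0.19 ± 0.12 and was not called. The R1 superfamily, which also holds DMRT1A, DMRT1B, DMRT1C and R1-2_DM, had 0 of 5 members called in edgeR, with changes from -0.19 to 0.38 and a median of -0.06. 5S_DM, the 5S ribosomal RNA genes, went from 1.42 and 1.30 to 2.23 and 2.07 (0.79 ± 0.13, edgeR adjusted p = 2.05e-08). Over the 7 elements with R1, R2 and RNA labels, 2 were higher and 0 lower (28.6% called, near the 32.0% of all elements).

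Jockey-superfamily LINEs had a median of 0.27 over 24 tested members, the highest of the superfamilies with 3 or more members (without enok_KD replicate 2 it was 0.39, under the 0.46 of Copia). Of the 24 members, 7 were higher and 2 lower (37.5% called, against 32.0% of all elements). The higher ones ran from FW_DM (0.38) to DOC3_DM (0.53), each a change of less than 1.5-fold, and BS, DOC3_DM and G5A_DM held with each TMM reference. The exceptions were DOC6_DM and G6_DM. DOC6_DM had the largest change of the superfamily and fell from log2 ratios of 1.19 and 1.59 to 0.65 and 0.71 (-0.70 ± 0.15, edgeR adjusted p = 6.39e-05). G6_DM fell from -0.93 and -1.03 to -1.39 and -1.74 (-0.58 ± 0.15, edgeR adjusted p = 0.001). Both decreases held with each TMM reference.

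DNA transposons were called in the Transib superfamily only, among the 29 tested. There 5 of 7 elements were lower and 0 higher (71.4% called, against 32.0% of all elements), with a median of -0.46. Calls were made at 0 of 10 Tc1 elements and 0 of 5 P elements in either direction (medians 0.07 and 0.06). Transib5 went from log2 ratios of 0.54 and 1.24 in GFP_KD to -0.05 and -0.15 in enok_KD, a change of -0.999 ± 0.21 (edgeR adjusted p = 3.98e-05). TRANSIB1 went from 0.69 and 0.65 to -0.32 and 0.10 (-0.73 ± 0.25, edgeR adjusted p = 0.0159). The other 3 calls, named after their values were seen, were TRANSIB3 (-0.54), M4DM (-0.46) and TRANSIB2 (-0.41). Among these 5, only Transib5 was called with each of the 8 TMM references, and TRANSIB2 and TRANSIB3 were called with 5. Transib elements together took 0.726% of the repeat reads.

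**Figure D3:**
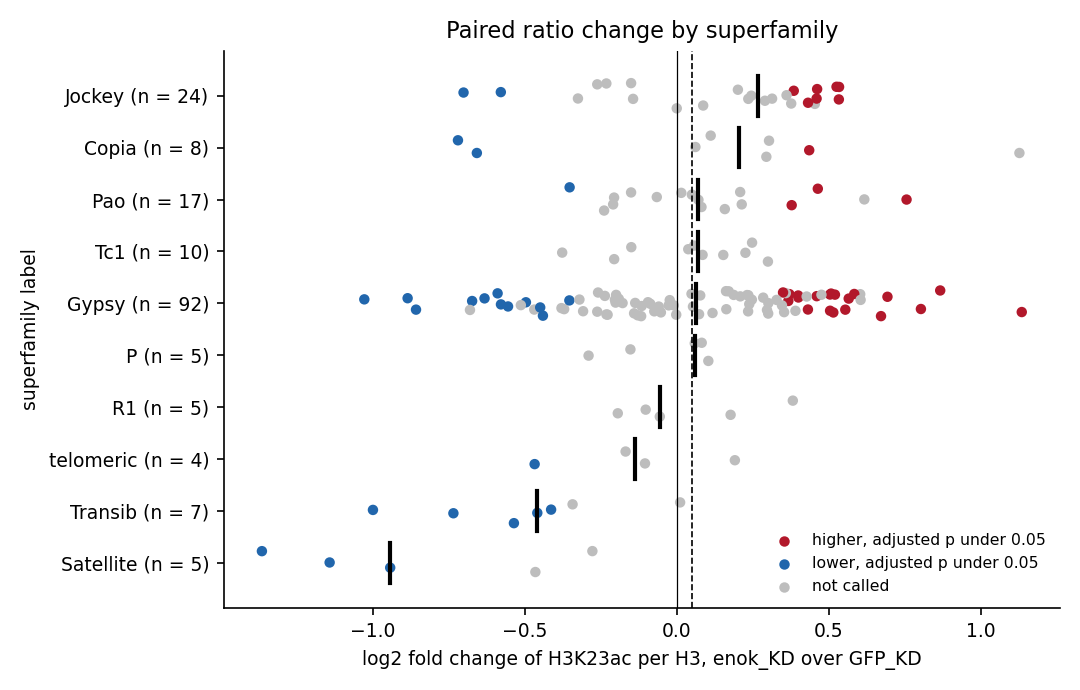
Each point is an element, with its log2 fold change of H3K23ac per H3 (enok_KD over GFP_KD) on the x axis and its superfamily label on the y axis, for labels with at least 3 tested members. Thick bars are medians, the dashed line is the median of all elements (0.05), and vertical scatter within a row carries no meaning. Satellites (median -0.94) and Transib elements (-0.46) lie to the left, and Jockey elements (0.27) to the right.

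Families that the study described as having more RNA in enok mutant ovaries were looked at next. The study measured that RNA in egg chambers of germline clones mutant for enok, whereas these libraries come from whole ovaries with an enok hairpin. RNA of these families was not measured in the libraries used here. Of 10 tested parts of the Burdock, HeT-A, Bari, blood, TAHRE, GATE and HMS-Beagle families, 2 were higher and 1 was lower (30%, against 32.0% of all elements), and the median was -0.13. BURDOCK_I fell from log2 ratios of 0.92 and 0.99 to 0.73 and 0.48 (-0.35 ± 0.13, edgeR adjusted p = 0.0274), a change that was -0.50 without enok_KD replicate 1 and -0.15 without replicate 2, whereas BURDOCK_LTR, at 1.08 and 1.58 against 0.51 and 1.44, overlapped between the groups (-0.26 ± 0.27). BLOOD_LTR was higher by 0.46 ± 0.18 (edgeR adjusted p = 0.0369) while its internal part, BLOOD_I, was at -0.02 ± 0.13. BATUMI_I, whose class label names GATE, was higher by 0.38 ± 0.12 (edgeR adjusted p = 0.0135). None of these 3 calls held with each of the 8 TMM references, and all 10 were uncalled without the block in edgeR. BARI1 (-0.38), BARI_DM (-0.15) and HMSBEAGLE_I (-0.03) were not called.

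HETA, TAHRE and TART maintain the chromosome ends of the fly in place of telomerase. HETA, the most counted of them with 15441 reads per library on average, had log2 ratios of 0.30 and 0.26 in GFP_KD and of 0.27 and 0.08 in enok_KD (-0.10 ± 0.12, edgeR adjusted p = 0.51). The groups overlapped. The SE of 0.12 rests on a spread pooled over elements, and without the block the SE of HETA was 0.24. With 1 pair left out its change ran from -0.22 to 0.06. TAHRE was at -0.17 ± 0.14 and TART at 0.19 ± 0.12, neither of them called. TART_B1 was called lower (-0.47 ± 0.19, edgeR adjusted p = 0.0419), from 0.83 and 0.53 to 0.48 and -0.06, with 4 of the 8 TMM references. Its change ran from -0.14 without enok_KD replicate 2 to -0.77 without replicate 1.

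A ratio can move through either antibody, and the fit without the block was used to give each of them alone. Among the 36 elements with a higher ratio, H3K23ac was higher in enok_KD at 35 and H3 was lower at 32, with medians of 0.21 and -0.30 on the log2 scale. Among the 29 with a lower ratio, H3 was higher at 28 with a median of 0.65, while H3K23ac was lower at 13 and higher at 16, with a median of 0.05. Lower ratios thus went mostly with more H3 reads rather than with fewer H3K23ac reads. RSP was among the 12 of these 29 with lower H3K23ac and higher H3, at -0.79 and 0.54. DIVER_I, named after its values were seen, was the only one of the 29 with less H3 (-0.34) and still less H3K23ac (-0.68). Of the antibodies taken singly, H3 was called at 5 elements (2.46%), all of them higher in H3 and lower in the ratio, and H3K23ac at 0 (0%) in edgeR, with 32 at an unadjusted p under 0.05. Without 1 of the 4 pairs the H3 count ran from 0 to 114, so it too rested on single pairs. A change in the number of nucleosomes and one in the efficiency of the H3 precipitation cannot be told apart here. No input library was used, so a difference in the amount of repeat DNA between the groups was not tested.

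**Figure D4:**
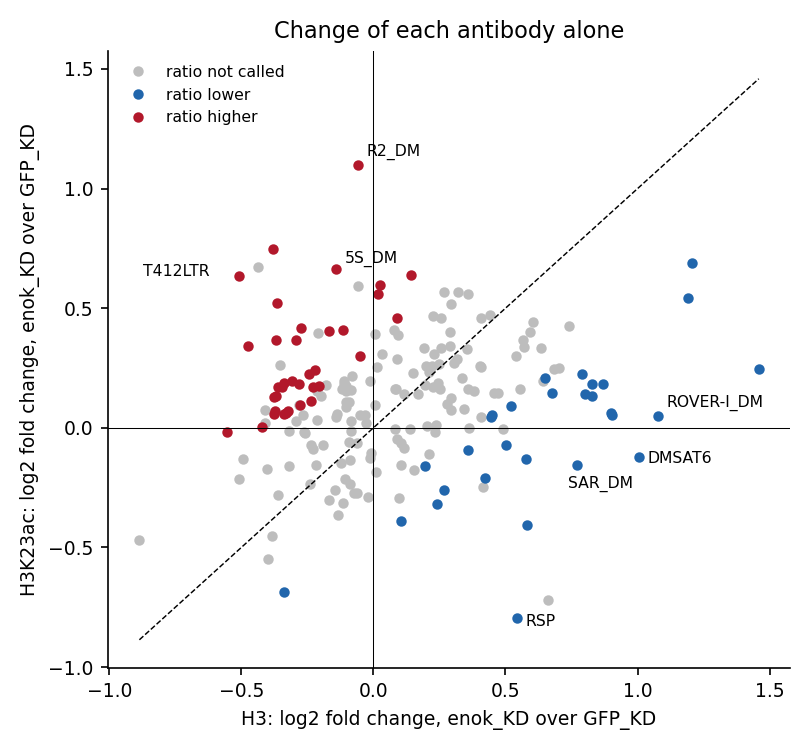
For each element the log2 fold change of H3 alone (x axis) and of H3K23ac alone (y axis), enok_KD over GFP_KD, is shown, with elements whose paired ratio was called higher in red and lower in blue. The dashed line marks an unchanged ratio. Blue points lie mostly to the right (median H3 change 0.65) near a zero change of H3K23ac, whereas R2_DM lies high on the y axis (1.10).

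Internal parts and LTRs of the same retrotransposon were then set side by side, since the tables count them separately. Internal parts were called higher at 9 of 56 and lower at 11 (35.7% called, median -0.03). LTRs were called higher at 16 of 59 and lower at 3 (32.2% called, median 0.21). Both shares were near the 32.0% of all elements. In 52 elements both parts were tested. The LTR had the higher change in 34 of these, by a median of 0.21, and the sign was the same in 37. Both parts were called in 6 elements, which were named after their values were seen. Gypsy (0.69 internal, 0.51 LTR), Gypsy2 (0.37 and 0.58) and Gypsy6 (0.52 and 0.80) were higher in both parts. Copia (-0.72 and -0.66) and IDEFIX (-0.67 and -0.44) were lower in both. QUASIMODO moved in opposite directions, with QUASIMODO_I at -0.56 ± 0.13 and QUASIMODO_LTR at 0.40 ± 0.14. TRANSPAC and TABOR had the widest gaps, of 1.28 and 1.17 on the log2 scale, with only 1 part called in each. LTRs were counted at a median of 211 reads per library and internal parts at 1630, so the error of an LTR was usually the larger. LTRs are also known to stand alone in genomes as solo copies.

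**Figure D5:**
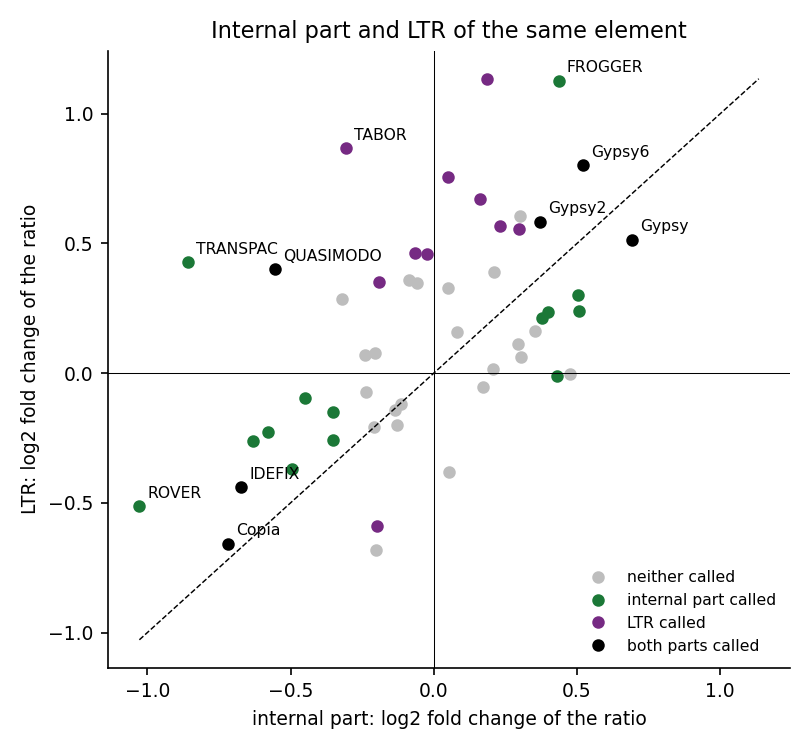
Each point is 1 of 52 LTR retrotransposons, with the log2 fold change of H3K23ac per H3 of its internal part on the x axis and of its LTR on the y axis. The dashed line marks equal change. In 34 elements the point lies above it, and QUASIMODO, TRANSPAC and TABOR lie farthest to the upper left.

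The fits with and without the block gave nearly the same fold changes, with a median absolute difference of 0.0089 and a maximum of 0.09 on the log2 scale. What differed was the error. The median SE was 0.16 with the block and 0.26 without it, and for single elements the unpaired SE was between 0.67 and 2.90 times the paired one (median 1.38). DMSAT6 had a change with an SE of 0.14 when paired and of 0.29 when not, and its unpaired unadjusted p of 0.00421 became an adjusted p of 0.129. The common coefficient of biological variation was 0.06 in the paired fit and 0.13 in the unpaired one. Of the 65 paired calls, 27 were among the 29 elements with an unadjusted p under 0.05 in the unpaired fit. The unpaired count depended on the enok_KD libraries, since it was 54 without the first enok_KD pair, 78 without the second, and 0 without either GFP_KD pair (12 and 5 elements at an unadjusted p under 0.05 without the first and the second).

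Across 7 other paired fits of all element classes, which changed the tool, the scaling or the filter, 37 of the 65 elements (22 higher, 15 lower) were called each time. DESeq2 with the block called 49 elements (24.1%), 33 higher and 16 lower, and gave 40 others no adjusted p. The 25 elements called in those 7 fits and with each of the 8 TMM references were 11 higher and 14 lower, and are listed with their values known. The higher ones were R2_DM, T412LTR, 5S_DM, Gypsy_I, Gypsy6_I, Gypsy6_LTR, Gypsy4_LTR, TABOR_LTR, BS, DOC3_DM and G5A_DM. The lower ones were RSP, DMSAT6, SAR_DM, ROVER-I_DM, TRANSPAC_I, Copia_I, IDEFIX_I, MDG3_I, DM297_I, QUASIMODO_I, DOC6_DM, G6_DM, Transib5 and XDMR. With all 8 libraries but without the pairing, RSP, DMSAT6, ROVER-I_DM, R2_DM and T412LTR passed in DESeq2, and the other 20 passed in none of the tools run. With the Satellite, RNA and Unknown classes left out, which also switched the TMM reference, 15 of the 25 (5 higher, 10 lower) were called. BS, DOC3_DM, G5A_DM, Gypsy6_I and Gypsy4_LTR were then not called, and RSP, DMSAT6, SAR_DM, XDMR and 5S_DM were among the elements left out.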

How the data were processed

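The authors sequenced H3 and H3K23ac ChIP libraries of ovaries, 2 replicates per antibody and knockdown, used Bowtie2 2.2.1 to place single-end reads on UCSC dm3 without mismatches, and kept unique positions only. Submitters' processing notes also name Trimmomatic and bedtools. The deposited values are read counts per repeat element, whole numbers that are neither normalised nor pooled. The counting program, the repeat annotation and the handling of duplicates are not given in the sources used here. Since unique reads alone were kept, identical copies of a repeat are represented by their diverged copies, and near-identical elements could share or split reads.

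Counts of both antibodies were joined by element. Elements with a mean of at least 10 counts entered edgeR 4.0.16 (R 4.3.3, limma 3.58.1) and its quasi-likelihood test, with TMM factors, which ranged from 0.903 to 1.10. The model held 4 pair terms (knockdown and replicate number) and the H3K23ac over H3 effect of each knockdown, and the difference of these effects was the contrast, with Benjamini-Hochberg adjustment over 203 elements. The fit left 2 residual degrees of freedom. The comparison fit used 4 group means. The same-number correlation given in the report was the check of the pairing, which the study does not state. Replicates are separate samples per the labels. In the paired fit the prior degrees of freedom were infinite, so each p-value and SE rests on a spread pooled over elements. They do not measure the replicate spread of that element alone. In the unpaired fit the prior degrees of freedom were 4.71, so an element's own spread counted as well. Per-pair log2 ratios used TMM-normalised counts with an offset of 0.5. DESeq2 1.42.0 and limma-voom were alternatives. The procedure was also run on simulated data, where pairs deviated alike in both knockdowns. Pairs in the real data did not, so that run cannot tell how many calls here are false. Elements named were the 10 highest and 10 lowest calls with at least 100 counts and separate ratios, the 5 lowest adjusted p-values, the telomeric elements and the families active in enok mutants, those called without the block by any tool, and the largest call of a superfamily. Others were named after their values were seen. Members and lists were chosen with earlier results of these data known. Tables of piRNA clusters, which also hold the authors' own comparison, were not used here. The study's comparison covered transposons as well, and its values for them were not used either.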

Additional observations from a re-analysis of the deposited data

How the results depend on the processing

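The count of 65 paired calls became 0 with no replicate block in edgeR and in limma-voom, and 5 with no replicate block in DESeq2. It was 19 (6 higher, 13 lower, of 188 tested) with the Satellite, RNA and Unknown classes left out. In alternatives chosen after seeing the data, it was 28 without Satellite and 25 without Unknown elements. These removals switched edgeR's TMM reference from enok_KD H3 replicate 2 to replicate 1, and the same switch with all elements kept gave 31 calls. With the reference kept, leaving out those classes gave 45, 59 and 64 calls. With enok_KD H3K23ac replicate 2 as reference it was 37. Crossing the GFP_KD numbers, also chosen after seeing the data, gave 72 calls, 64 of them shared. Leaving out 1 pair gave 0 to 49 paired calls, 0 to 78 unpaired calls, 0 to 114 calls for H3 alone and 0 to 79 for H3K23ac alone, so that at this depth and replication the number of calls is not settled. The median over all elements rose to 0.17 without enok_KD replicate 2, and 11 of the list medians moved by more than the spread between replicates. Of these, the medians of the R1 superfamily (0.16), gypsy-like elements with an envelope gene (0.10), internal parts (0.11) and families active in enok mutants (0.02) turned positive. The median of telomeric elements (0.01) turned positive too, but it was not among the 11. With 1 pair left out the Satellite median ran from -1.06 to -0.84 and the Transib median from -0.63 to -0.29. With no replicate block in edgeR, all 25 called elements among the 33 named lost their call, the fold changes hardly moving. The other 8 named elements were uncalled in both fits.

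Only uncalled elements turned direction. BLOOD_I was at 0.0177 with DESeq2 and 0.0193 with DESeq2 without the block, at 0.0183 with DESeq2 size factors, 0.0232 with total counts, 0.0233 with GFP_KD H3 replicate 2 as reference, and from -0.110 to 0.0385 with 1 pair left out. HMSBEAGLE_I was at 0.0138, 0.0174, 0.0137, 0.0199 and 0.0212 in the same 5 settings and from -0.179 to 0.175 with 1 pair left out. Over those omissions BARI_DM ran from -0.300 to 0.0644, HETA from -0.220 to 0.0585 and BURDOCK_LTR from -0.733 to 0.110. The cause of these turns was not tested.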

Other observations

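Of 9 tested elements of the Unknown class 0 were higher and 3 lower (33.3%, against 32.0% of all elements), with a median of -0.45. XDMR, named after its values were seen, went from log2 ratios of 1.25 and 1.67 in GFP_KD to 0.78 and 0.79 in enok_KD (-0.67 ± 0.14, edgeR adjusted p = 2.46e-05) and was called with each of the 8 TMM references. ALUII_DM was at -0.53 ± 0.18 (edgeR adjusted p = 0.0159), with both antibodies higher in enok_KD (1.21 in H3 and 0.69 in H3K23ac on the log2 scale). TLD2, at 35.4 reads per library on average, was at -1.2 ± 0.43 (edgeR adjusted p = 0.021).

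ROO_I, which held the most reads of all elements, was not called. Its log2 ratios went from 1.23 and 1.32 to 1.02 and 1.05 without overlap, and its change of -0.24 ± 0.11 had an edgeR adjusted p of 0.099.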
